A study of Mus musculus with 4 samples.

Results

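The genes described here are 10 genes of the choroid plexus epithelium, led by transthyretin (Ttr), in the prefrontal cortex of mice. They were chosen by gene name (Ttr, Folr1, Kl, Kcnj13, Kcne2, Clic6, Aqp1, Sostdc1, Otx2 and Krt18) from earlier results of the same arrays, in which they were high in 1 group, and they stand for 10 of the 19175 named genes that were measured on all 4 arrays. The arrays carried 15 probes for them, of which 13 were well above background on every array. Because measured values chose the genes, their levels and changes are given as a description and no test was made on them.

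All mice were of the B6J strain and 3 months old, and they ate the assigned diet for about 70 days from weaning at postnatal day 21. The groups were wild-type mice on starch, wild-type mice on sucrose, mice heterozygous for Glo1 on starch and mice heterozygous for Glo1 on sucrose, where Glo1 encodes glyoxalase 1, an enzyme that clears methylglyoxal. RNA of 3 mice was pooled in each group and 200 ng of that RNA was taken for Cy3 labelling, so that each group is 1 pool on 1 one-colour Agilent array. There is therefore no spread between animals or between arrays, and every change below compares single arrays.

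The choroid plexus is a frond of epithelium over a fenestrated capillary bed that hangs into the brain ventricles and secretes the cerebrospinal fluid. Its cells move ions and water across their apical membrane and release carrier proteins such as transthyretin, which binds thyroid hormone and the retinol-binding protein. It is a tissue of the ventricles and no layer of the cortex, and at its root it joins the ciliated ependyma that lines the ventricular wall.

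On the 4 arrays, 77.6 to 80.2% of spots other than controls passed the software's background test and none was saturated. The 75th percentile of the processed signal lay between 1780 and 1929 intensity units, the lowest signal called well above background was 10.5 to 13 units, and the medians of the negative controls were 2.40 to 2.91. The error given with each signal is the one that the Agilent software computed for that probe from its own error model, and it covers neither animals nor arrays. As a second measure of array noise, 300 probes printed 10 times each gave an SD of a log2 difference of 0.13 at 50 to 1000 units, 0.11 at 1000 to 5000 units and 0.061 above 5000 units, and of 0.92 under 50 units, where only 4 probe-array pairs were at hand. Glo1 itself was lower in heterozygous mice on both diets, by 0.56 on starch and 0.86 on sucrose on the log2 scale.

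All 10 genes had their highest signal on the array of heterozygous mice on sucrose. Against the highest of the other 3 arrays, that array was 3.45-fold (Aqp1) to 41.3-fold (Ttr) higher, with a median log2 difference of 3.98. All 10 were past 2-fold there, as were 0.814% of all genes measured. This is the pattern for which the genes were taken, and the following accounts give the signal on every array, gene by gene, in intensity units.

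**Figure D1:**
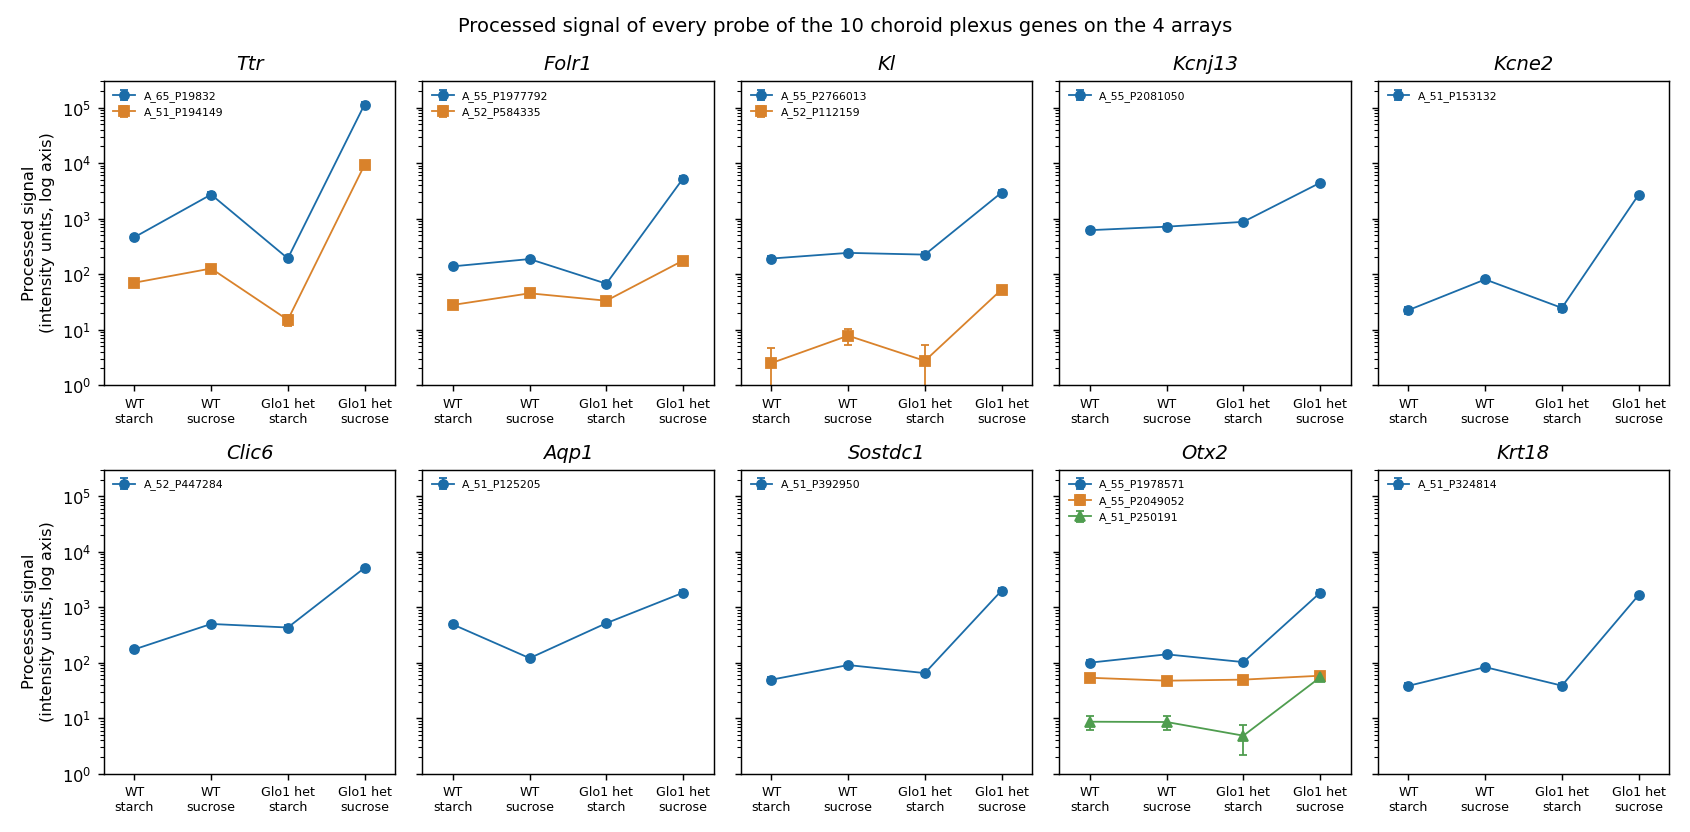
Processed signal (intensity units, log axis) of each of the 15 probes of the 10 genes on the 4 arrays, with the software's signal error as bars and lines that join values of 1 probe. At 14 of the 15 probes the heterozygous sucrose array stands more than 2-fold above the other 3 arrays, and the Otx2 probe A_55_P2049052 stays between 47.5 and 58.3 units throughout.

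Among the secreted and carrier proteins, Ttr had the widest range over the arrays. It was read by 2 probes on chromosome 18 (coordinates here and below are of the files' build, mm9). At A_65_P19832 (chr18:20828519-20828577) its signal was 461 ± 46.1 in wild-type mice on starch, 2708 ± 271 in wild-type mice on sucrose, 191 ± 19.3 in heterozygous mice on starch and 113212 ± 11321 in heterozygous mice on sucrose. At A_51_P194149 (chr18:20832612-20832672) the signals were 69.8 ± 7.48, 126 ± 12.8, 14.9 ± 3.24 and 9220 ± 922 in the same order. Both probes put the arrays in the same order, with heterozygous starch lowest, and no neighbouring signals of Ttr overlapped within the software's error. In heterozygous mice the sucrose array was 578-fold above the starch array at the first probe, a log2 difference of 9.18, and the log2 difference was 9.24 at the second. In wild-type mice the probes parted more: the sucrose array was higher by a log2 of 2.46 at the first probe and 0.75 at the second.

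Sostdc1, a secreted antagonist of bone morphogenetic proteins that also modulates Wnt signalling, had signals of 49.5 ± 5.77 in wild-type starch, 90.8 ± 9.48 in wild-type sucrose, 65.0 ± 7.28 in heterozygous starch and 1990 ± 199 in heterozygous sucrose at A_51_P392950 (chr12:37044787-37044846). The 3 lower arrays stood apart by slightly more than their errors, over a log2 range of 0.78. The diet difference in heterozygous mice was 4.90 on the log2 scale.

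Folr1, the folate receptor alpha that carries folate from blood into the cerebrospinal fluid, was also read by 2 probes, whose first 30 bases are shown because they gave different folds.
A_55_P1977792: gtggtggggctctgacagcctctttaataa
A_52_P584335: ctgggctttttcctgtgctccgagtaggtg
At A_55_P1977792 (chr7:109006846-109006905, minus strand) the signals were 137 ± 14 in wild-type starch, 186 ± 18.8 in wild-type sucrose, 67.0 ± 7.28 in heterozygous starch and 5251 ± 525 in heterozygous sucrose. At A_52_P584335 (chr7:109016972-109017031, minus strand) they were 27.7 ± 3.98, 44.9 ± 5.18, 33.1 ± 4.54 and 175 ± 17.8. The diet difference in heterozygous mice was 6.26 on the log2 scale at the first probe and 2.37 at the second, and the genotype difference on starch was -1.12 at the first and 0.17 at the second. So both probes set heterozygous sucrose highest, while the low place of heterozygous starch was seen at the brighter probe and not at the other, where both starch arrays overlapped within their errors.

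Kl encodes klotho, a membrane protein that acts as co-receptor of FGF23 and is also shed or made in a secreted form. Its 2 probes are shown because the files describe A_52_P112159 as a probe of the secreted isoform.
A_55_P2766013: ggagaatattgccagaacagctcaaaactg
A_52_P112159: ctgttattctgggatggttctggtagagaa
At A_55_P2766013 (chr5:151796302-151796361) the signals were 190 ± 19.2, 241 ± 24.2, 224 ± 22.5 and 2932 ± 293 in wild-type starch, wild-type sucrose, heterozygous starch and heterozygous sucrose. The first 3 arrays lay within 0.24 of each other on the log2 scale, the narrowest range of the 10 genes, and neighbours among them overlapped within their errors. The secreted-form probe (chr5:151789486-151789545) was well above background on the heterozygous sucrose array alone, at 52.4 ± 5.94, and measured 2.49, 7.75 and 2.73 units on the other arrays. Taken against the detection limit of each dim array, this probe was at least 4.06-fold higher than in heterozygous starch, at least 4.93-fold higher than in wild-type sucrose and at least 4.15-fold higher than in wild-type starch.

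Among the channels, Kcne2 varied most. It encodes a small subunit that sets the gating of voltage-gated potassium channels. At A_51_P153132 (chr16:92298155-92298214) its signals were 22.4 ± 3.57 in wild-type starch, 79.9 ± 8.38 in wild-type sucrose, 24.5 ± 3.85 in heterozygous starch and 2673 ± 267 in heterozygous sucrose. Both starch arrays overlapped within their errors, and sucrose was higher in both genotypes, 3.33-fold in wild-type and 106-fold in heterozygous mice, both smaller with normexp, another background correction that draws dim signals together (log2 0.42 and 4.92). Kcnj13, the inward rectifier Kir7.1 of the apical membrane, gave 617 ± 61.7, 713 ± 71.3, 872 ± 87.2 and 4398 ± 440 in the same order at A_55_P2081050 (chr1:89282991-89283050, minus strand). Its 3 lower arrays lay within 0.42 of each other on the log2 scale, and heterozygous sucrose was 4.92-fold above the next.

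Clic6, of the family of chloride intracellular channels, gave 174 ± 17.6 in wild-type starch, 499.6 ± 50.03 in wild-type sucrose, 431 ± 43.2 in heterozygous starch and 5105 ± 511 in heterozygous sucrose at A_52_P447284 (chr16:92541363-92541422). Its lowest array was wild-type starch, and wild-type sucrose and heterozygous starch, which overlapped within their errors, were 2.68-fold and 2.34-fold above it. Aqp1, the apical water channel, had another order. At A_51_P125205 (chr6:55298480-55298539) it gave 488 ± 48.9 in wild-type starch, 121 ± 12.3 in wild-type sucrose, 516 ± 51.7 in heterozygous starch and 1824 ± 182 in heterozygous sucrose. Aqp1 was thus 4.33-fold lower on sucrose than on starch in wild-type mice and 3.45-fold higher in heterozygous mice, and both starch arrays overlapped.

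Otx2, a homeobox transcription factor needed for the choroid plexus to form, was read by 3 probes, of which 2 set heterozygous sucrose apart and 1 did not. Their first 30 bases are shown for that reason, with capitals for GGATTA, the reverse complement of the TAATCC motif that OTX proteins bind.
A_55_P1978571: tttcagggctgtgtggattgtgcgactgat
A_55_P2049052: gggacgtgtgcccctcGGATTAtctcgtta
A_51_P250191: tagggcacagctcgacgttctggaagctct
At A_55_P1978571 (chr14:49277855-49277914, minus strand) the signals were 100.2 ± 10.4 in wild-type starch, 142 ± 14.4 in wild-type sucrose, 103 ± 10.8 in heterozygous starch and 1820.4 ± 182 in heterozygous sucrose. On the log2 scale the sucrose array was thus higher by 0.40 in wild-type mice and by 4.11 in heterozygous mice. At A_51_P250191 (chr14:49281026-49281085, minus strand) heterozygous sucrose alone was well above background, at 54.3 ± 6.05 against 4.85 to 8.65 units, and was at least 4.20-fold higher than heterozygous starch. At A_55_P2049052 (chr14:49284952-49285011, minus strand), which the files assign to an Ensembl transcript, the signals were 53.6 ± 5.98, 47.5 ± 5.32, 49.6 ± 5.74 and 58.3 ± 6.54. That probe changed by no more than 0.28 on the log2 scale in any pair of arrays that differ in diet or genotype alone.

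The whole 60 bases of A_55_P2049052 were found in 1 of 4 RefSeq windows upstream of an Otx2 start site, between 227 and 168 bases before it (assembly GRCm38.p6, minus strand). Such windows were at hand for 6 of the 10 genes, not for Ttr, Folr1, Clic6 or Sostdc1, and no other probe of the 6 genes was found in one. Which Otx2 transcripts the pools contained was not measured.

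Krt18, a keratin of simple epithelia that pairs with Krt8, gave 38.4 ± 4.52 in wild-type starch, 83.4 ± 8.62 in wild-type sucrose, 38.6 ± 4.67 in heterozygous starch and 1649.7 ± 165 in heterozygous sucrose at A_51_P324814 (chr15:101862341-101862400). Both starch arrays overlapped, and sucrose was higher in both genotypes, 2.03-fold in wild-type and 41.6-fold in heterozygous mice, again smaller with normexp (log2 0.32 and 3.91). Its partner Krt8 was well above background on both sucrose arrays and on neither starch array, and was at least 3.99-fold higher on sucrose in wild-type and at least 22.9-fold higher in heterozygous mice.

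The comparison of diets within heterozygous mice sets the sucrose array of that genotype against its starch array. All 10 genes were past 2-fold higher on sucrose, as were 1.31% of all genes measured, and the rule used this contrast, so nothing is read from that count. The median difference was 4.51 on the log2 scale (22.7-fold), against 0.00 over all genes. Among the 19175 genes, Ttr, Kcne2, Folr1, Krt18 and Sostdc1 held ranks 1 to 5 from the top, and the last of the 10, Aqp1, held rank 75. The lowest of the 10 were Aqp1 at 1.79 and Kcnj13 at 2.30, and none lay under the 2-fold line. With normexp correction all 10 remained past 2-fold but were lower: Kcne2 came from 6.73 to 4.92, Folr1 from 6.26 to 5.12, Krt18 from 5.38 to 3.91, Sostdc1 from 4.90 to 3.78 and Otx2 from 4.11 to 3.25, while Ttr came from 9.18 to 8.69. With the mean over a gene's probes all 10 were again past 2-fold, but Folr1 came to 4.31 and Otx2 to 2.16, below Kcnj13.

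The comparison of genotypes on sucrose has the same array on its high side. All 10 genes were past 2-fold higher in heterozygous mice (1.41% of all genes were), with a median log2 difference of 4.09, from 2.61 for Kcnj13 to 5.37 for Ttr. Heterozygous sucrose against wild-type starch gave 10 of 10 past 2-fold higher (1.37% of all genes) and a median of 4.95. The interaction, which is the diet difference of heterozygous mice less that of wild-type mice, was past a log2 of 1 upwards in 10 of 10 (2.03% of all genes), with a median of 4.01, from 2.11 for Clic6 to 6.72 for Ttr. These 4 comparisons share the heterozygous sucrose array, which is 1 pool of 3 mice, and none of them can be taken without it.

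The comparisons that leave out that array show what the genes did elsewhere. In wild-type mice, 4 of the 10 genes were past 2-fold higher on sucrose, where 0.49% of all genes were, and 1 was past 2-fold lower, where 0.954% were. Those higher were Ttr (5.49-fold), Kcne2 (3.33-fold), Clic6 (2.68-fold) and Krt18 (2.03-fold), and Aqp1 was the one lower. With normexp background correction Kcne2 came to 0.42 and Krt18 to 0.32 on the log2 scale, which left 2 higher and 1 lower. The starch signals of both genes, 22.4 and 38.4 units, lie under 50 units, where array noise was widest, and the second probe of Ttr was higher by 0.75. At the brightest probes Ttr held rank 7 from the top of the 19175 genes and Kcne2 rank 23. Sostdc1 (0.78 on the log2 scale), Otx2 (0.40), Folr1 (0.34), Kl (0.24) and Kcnj13 (0.11) were higher by less than 2-fold, so that 9 of the 10 differences were above 0 and the median was 0.59, against 0.00 over all genes. With normexp the median of the 10 was 0.19, with Sostdc1 at 0.19 and Otx2 at 0.13. The genes were chosen with these values known.

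Between genotypes on starch, 1 of the 10 genes was past 2-fold higher in heterozygous mice (0.344% of all genes) and 2 were past 2-fold lower (0.433%). Clic6 was higher by 1.23 on the log2 scale, and Ttr (-1.35) and Folr1 (-1.12) were lower. The second probe of Ttr gave -2.31 and that of Folr1 gave 0.17. With normexp correction Folr1 came to -0.64 and Clic6 to 0.91, which left 1 gene past 2-fold, lower. The other 7 genes lay between -0.07 (Krt18) and 0.42 (Kcnj13), and the median of the 10 was 0.02, against -0.02 over all genes. On starch, 7 of the 10 genes were thus within 2-fold. On sucrose all 10 were higher in heterozygous mice, which is the pattern for which the genes were taken.

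**Figure D2:**
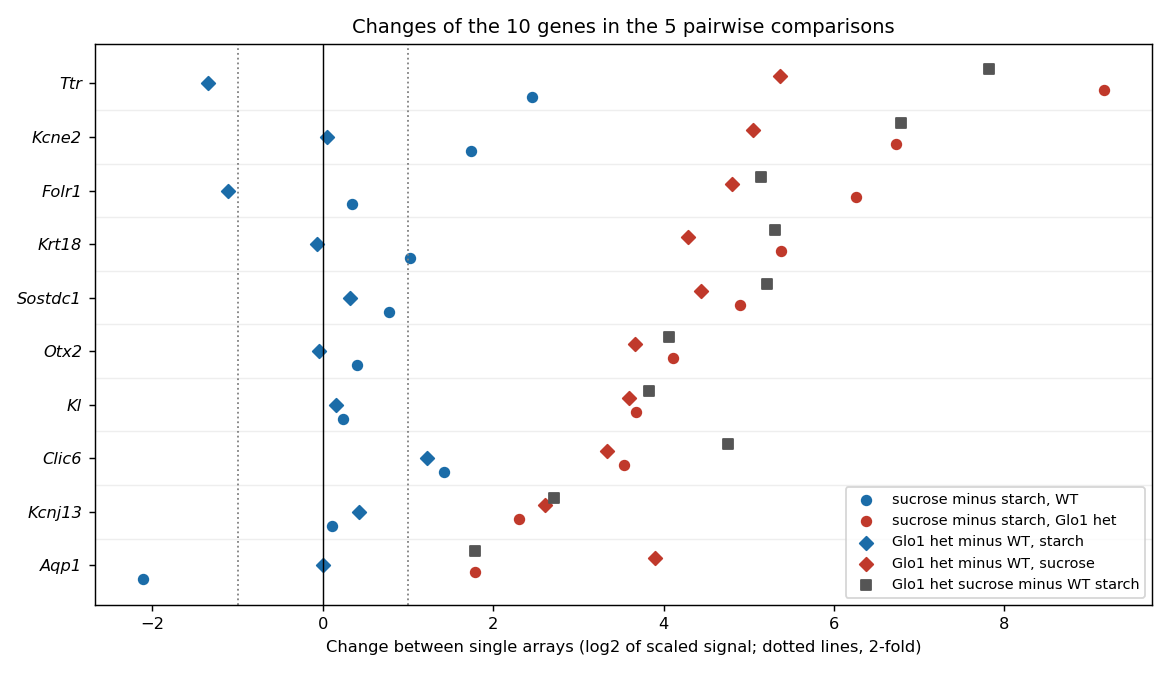
Log2 change between single arrays for each of the 10 genes in the 5 pairwise comparisons, at the brightest probe, with dotted lines at 2-fold. The 3 comparisons with heterozygous sucrose on 1 side reach from 1.79 to 9.18, and the 2 comparisons without it from -2.11 to 2.46.

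The diet difference could be set side by side in both genotypes with no array in common. Across the 10 genes, Pearson's r between the wild-type and the heterozygous difference was 0.785 and Spearman's rho was 0.745, against 0.249 and 0.301 across all 19175 genes. The genes are not independent of each other, as each comparison rests on the same 2 pools for all of them, and these coefficients are descriptions. The 10 genes were also chosen for high values on heterozygous sucrose, and their differences in that genotype span 1.79 to 9.18. Their coefficients and those over all genes are therefore not a like comparison. At the brightest probes Ttr and Kcne2 were the highest of the 10 in both genotypes, and Aqp1 was the lowest in both. The place of the first pair in wild-type mice depended on probe and processing: Kcne2 came to 0.42 with normexp, below Clic6 at 1.08, and the second probe of Ttr was at 0.75, below Sostdc1 at 0.78. The coefficients for the 10 genes rest on the same values. Folr1, next after Kcne2 in heterozygous mice at 6.26, was at 0.34 in wild-type mice, close to Otx2.

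**Figure D3:**
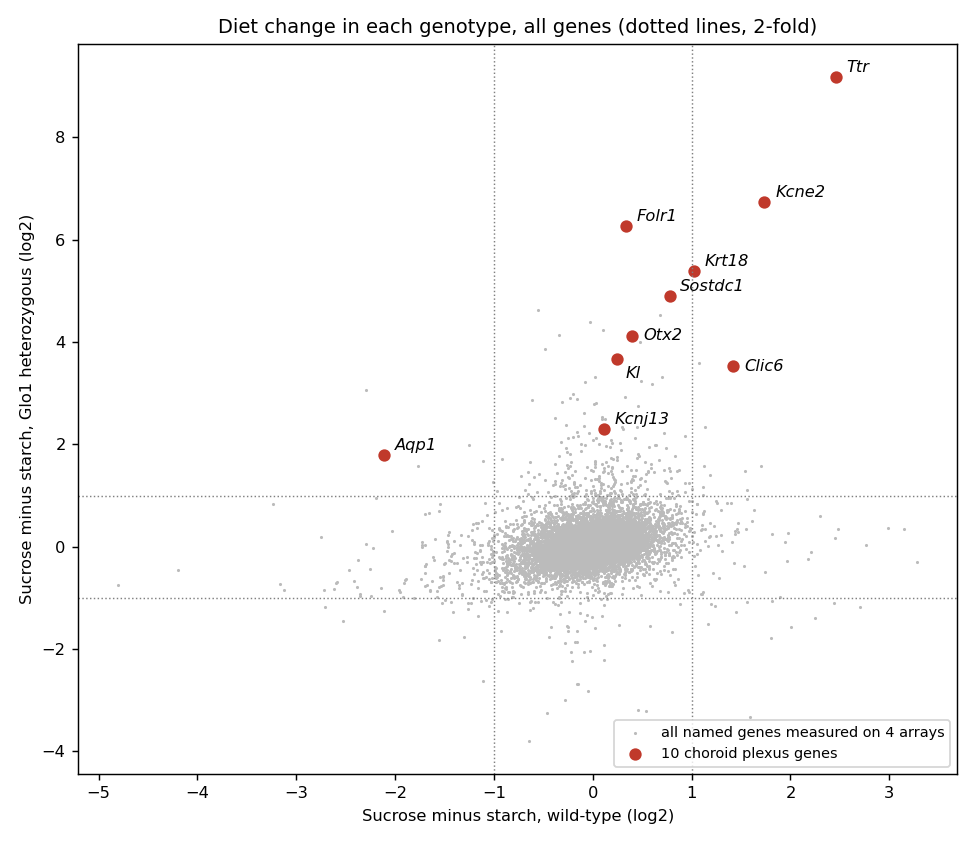
Log2 change from starch to sucrose in wild-type mice (horizontal) and in Glo1 heterozygous mice (vertical) for all 19175 genes in grey and the 10 choroid plexus genes in red, with dotted lines at 2-fold. The 10 genes lie at the upper edge, from Aqp1 at -2.11 and 1.79 to Ttr at 2.46 and 9.18.

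The 10 genes shared 1 profile to different degrees. With each gene's 4 log2 values centred on their mean, the median profile of the 10 was -1.34 in wild-type starch, -0.70 in wild-type sucrose, -1.21 in heterozygous starch and 3.30 in heterozygous sucrose. Otx2 (root mean square distance 0.206) and Sostdc1 (0.215) followed it most closely, and Aqp1 (1.37) and Ttr (1.77) least, beside a median distance of 1.92 over all genes. The 10 other genes nearest to this profile over the 4 arrays were Dsp (0.0801), Wfdc2 (0.202), F5 (0.212), Steap1 (0.279), Wdr63 (0.448), Tmem72 (0.460), 1500015O10Rik (0.512, now Ecrg4), Ccdc153 (0.526), Lct (0.600) and 4833427G06Rik (0.611). Of these, 5 were in the list of other choroid plexus genes, 2 (Wdr63 and Ccdc153, of motile cilia) in the ependyma list and 1 (Dsp, the desmosome protein desmoplakin) in the list of keratins and junctions.

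As multiples of each array's 75th percentile, Dsp was at 0.0147 in wild-type starch, 0.0236 in wild-type sucrose, 0.0181 in heterozygous starch and 0.416 in heterozygous sucrose. Wfdc2, a secreted protein with protease-inhibitor domains, was at 0.0601, 0.0838, 0.0678 and 1.08. F5, coagulation factor V, was at 0.0509, 0.0546, 0.0508 and 0.957. These 3 genes had 3 low arrays close together and 1 high array, as had Kl, Kcnj13, Otx2 and Sostdc1 among the 10 genes, whose 3 other arrays spanned a log2 range of 0.24 to 0.78. In the remaining 6 genes those arrays spanned 1.09 (Krt18) to 3.81 (Ttr).

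In all, 16 genes (0.0834% of those measured) were 8-fold or more above their highest other array on heterozygous sucrose, a threshold set after the values were seen. They were 8 of the 10 genes, without Kcnj13 (4.92-fold) and Aqp1 (3.45-fold), then F5 (17.5-fold), Steap1 (15.5-fold), Wfdc2 (12.9-fold), 1500015O10Rik (9.95-fold) and Tmem72 (8.02-fold) of the other choroid plexus genes, Wdr63 (21.1-fold) and Ccdc153 (9.26-fold) of the ependyma list, and Dsp (17.6-fold). None of the 16 was outside the lists of choroid plexus, ependyma and junction genes. These lists, like the 10 genes, were chosen with earlier results of these data known, so nothing is read from that.

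Of 38 other genes of choroid plexus epithelium, 33 were measured on all 4 arrays. In heterozygous mice 18 of the 33 were past 2-fold higher on sucrose and none lower, with a median of 1.11, and 19 were past 2-fold higher in heterozygous than in wild-type mice on sucrose, with a median of 1.18. Wild-type mice had none past 2-fold higher on sucrose and 1 lower (median 0.04), and between genotypes on starch none was higher and 1 was lower (median 0.03). Both single exceptions were Tmem27 (now Cltrn), named after its values were seen, at -2.30 for diet in wild-type mice, 3.06 for diet in heterozygous mice and -2.45 for genotype on starch. Its levels of 0.00882 of the 75th percentile in wild-type sucrose and 0.00797 in heterozygous starch were under 50 units, where array noise was widest. Steap1 (4.39 for diet in heterozygous mice), F5 (4.24), Wfdc2 (3.99) and Tmem72 (3.32) were the highest, and in wild-type mice the same genes were at -0.02, 0.10, 0.48 and 0.70. Their summed level was 43.7, 44.3, 45.0 and 76.8 times the 75th percentile on wild-type starch, wild-type sucrose, heterozygous starch and heterozygous sucrose. On heterozygous sucrose 32.5 of the 76.8 came from Enpp2, the lysophospholipase autotaxin. The sum over the 10 genes was 1.28, 2.55, 1.34 and 73.0, of which Ttr alone gave 0.259, 1.42, 0.101 and 58.7. These sums run over different probes, so that 1 list's sum cannot be set against another's.

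A further 4 of these genes passed the background test on some arrays only, and all 4 were past 2-fold higher on sucrose in heterozygous mice: Slc4a5 (a sodium bicarbonate cotransporter) at least 86.8-fold, Calml4 at least 64.6-fold, the tight-junction claudin Cldn3 at least 9.85-fold and Lmx1a (a transcription factor of the roof plate) at least 8.84-fold. Lmx1a was well above background on the heterozygous sucrose array alone. All 4 passed the test on heterozygous sucrose and failed it on heterozygous starch, so a bound between these arrays could only be higher. Calml4 was also at least 2.23-fold lower in heterozygous than in wild-type mice on starch. In a pooled tissue sample, more or fewer cells of a type and more or less RNA per cell cannot be told apart.

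Genes of the ventricular lining were also measured. Of 20 genes of ependyma and motile cilia, 18 were measured on all arrays, and 9 of them were past 2-fold higher on sucrose in heterozygous mice (median 0.91) while 8 were past 2-fold higher in heterozygous mice on sucrose (median 0.86). None was lower in either. In wild-type mice none was higher and 2 were lower (median -0.24), and on starch none was past 2-fold between genotypes (median -0.22). Wdr63 was highest at 4.62 for diet in heterozygous mice, followed by Ccdc153 at 4.13 and Mia at 1.85, and Dnah11, an axonemal dynein, was at -2.38 for diet in wild-type mice and at 2.49 between genotypes on sucrose. Tmem212, below background in heterozygous starch, was at least 39.8-fold higher on sucrose in heterozygous mice and at least 2.50-fold lower in them on starch. The list's summed level was 3.31, 3.05, 2.92 and 6.56 on the 4 arrays in the order above. The part of ependymal cells in the values of the 10 genes was not tested.

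The other genes of each pathway, taken from lists of known partners, mostly stayed within 2-fold in the diet comparison of heterozygous mice. For transthyretin, 1 of 15 genes of thyroid hormone and retinol handling was past 2-fold higher, the deiodinase Dio3 at 1.1, with a list median of 0.14. None of 13 folate genes (median 0.10), none of 11 measured klotho and FGF genes (0.03), none of 18 potassium channel partners (-0.10) and none of 20 measured BMP and Wnt genes (-0.02) was past 2-fold. Of 23 measured genes of ion and water transport into the cerebrospinal fluid, 1 was past 2-fold higher, the carbonic anhydrase Car12 at 1.09 (median 0.06), beside the bound for Slc4a5 given above. Wnt3a, of the BMP and Wnt list, was well above background in heterozygous starch alone, and was at least 2.13-fold lower on sucrose in heterozygous mice and at least 2.19-fold higher in them on starch.

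In the other 3 comparisons of diet and genotype the same 6 lists held few genes past 2-fold. The vitamin D receptor Vdr was at -1.07 for diet in wild-type mice, and on sucrose Car12 (1.43) and Dio3 (1.23) were higher in heterozygous mice. Slc4a5, well above background on both sucrose arrays and on neither starch array, was higher by more, at 5.76 for genotype on sucrose. It is not part of the list medians, which hold only genes measured on all arrays. List medians lay between -0.08 and 0.12. Some genes are in more than 1 list: Car12 is also among the other choroid plexus genes, as are Slc4a5, Cldn3, Lmx1a and Msx1, and Foxj1 is also in the ependyma list.

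Of 17 measured transcription factors of the roof plate and choroid plexus, 3 were past 2-fold higher on sucrose in heterozygous mice: Gmnc, a factor of multiciliated cells, at 1.67, Msx1 at 1.31 and Foxj1, the master factor of motile cilia, at 1.26. The list median was 0.11. In wild-type mice 2 were lower, Meis1 at -1.17 and Foxj1 at -1.01, and the median was -0.14. Otx1, the paralogue of Otx2, passed the background test on wild-type sucrose alone, at 0.00668 of the 75th percentile. Of 14 measured genes of epithelial keratins and junctions, on sucrose 4 were higher and 1 was lower in the heterozygous mice (median 0.33), led by Dsp (4.52) and the tight-junction protein Tjp3 (2.81), with Pkp2 at 1.20 and Krt20 at -1.64. Krt7 and Epcam were well above background on no array.

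Promoter windows of 250 bases were found in the RefSeq table (assembly GRCm38.p6) for 6 of the 10 genes, with 10 start sites, and are described because the genes moved together. On either strand TAATCC was in 1 of the 10 windows (an Otx2 start), as in 6.25% of 32851 mouse windows of that length. CCAAT was in 2 (33.8% of all windows) and TATAAA in 2 (12.4%). The window of Kcnj13 (chr1:87394730-87394979, minus strand) and that of the most upstream Otx2 start (chr14:48667645-48667894, minus strand) are shown as those with TATAAA, in capitals together with CCAAT or its reverse complement ATTGG. A match is no evidence of binding.
Kcnj13: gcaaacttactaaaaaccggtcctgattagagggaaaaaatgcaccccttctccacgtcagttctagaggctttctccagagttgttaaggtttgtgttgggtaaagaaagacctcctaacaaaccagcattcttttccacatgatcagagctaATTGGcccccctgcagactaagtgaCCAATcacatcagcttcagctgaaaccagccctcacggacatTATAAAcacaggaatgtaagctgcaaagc
Otx2: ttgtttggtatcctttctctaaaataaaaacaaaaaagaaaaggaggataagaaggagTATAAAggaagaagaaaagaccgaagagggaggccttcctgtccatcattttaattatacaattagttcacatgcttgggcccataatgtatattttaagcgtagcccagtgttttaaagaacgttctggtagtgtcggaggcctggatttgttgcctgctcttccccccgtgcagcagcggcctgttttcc

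Markers of other cell types that the dissected tissue could hold are given for their movement with the 10 genes. Striatal genes stood opposite to the 10 genes for diet in heterozygous mice and for genotype on sucrose. For diet in wild-type mice they stood on the same side, and between heterozygous sucrose and wild-type starch their median was -0.09. Of 12, 5 were past 2-fold higher and none lower on sucrose in wild-type mice (median 0.85), none higher and 5 lower in heterozygous mice (median -0.90), 4 higher and none lower between genotypes on starch (0.83), and none higher and 7 lower on sucrose (-1.19). For diet, Adora2a, the adenosine receptor of striatal neurons, was at 1.80 in wild-type mice and -1.79 in heterozygous mice, and the dopamine receptor Drd1 was at 1.45 and -1.27. Drd2 was at 0.31 and -0.80. The summed level of the striatal list was 37.7, 60.7, 56.6 and 32.7 on the 4 arrays, lowest where the 10 genes were highest, though wild-type starch, at 37.7, was close to it without high levels of the 10 genes. The part of tissue makeup in the values of the 10 genes was not tested.

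The 12 genes of cortical excitatory neurons had none past 2-fold in any of the 4 comparisons of diet and genotype, with summed levels of 125, 152, 136 and 145 and a diet median of 0.07 in heterozygous mice. Neither had the 14 measured genes of meningeal fibroblasts (summed levels 13.5, 13.7, 15.2 and 16.5, median -0.16), the 7 of fenestrated endothelium, the vessel type under the choroid epithelium (6.0, 5.92, 5.36 and 6.22, median 0.15), or the 10 of barrier endothelium (27.6, 25.5, 26.1 and 24.9, median 0.02). Of 12 genes of liver and kidney epithelium, which also make transthyretin or klotho, none of the 8 measured was past 2-fold, and Apoa1, Fgb, Umod and Slc12a1 were well above background on no array. Their summed level was 4.20, 3.78, 3.31 and 3.30.

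**Figure D4:**
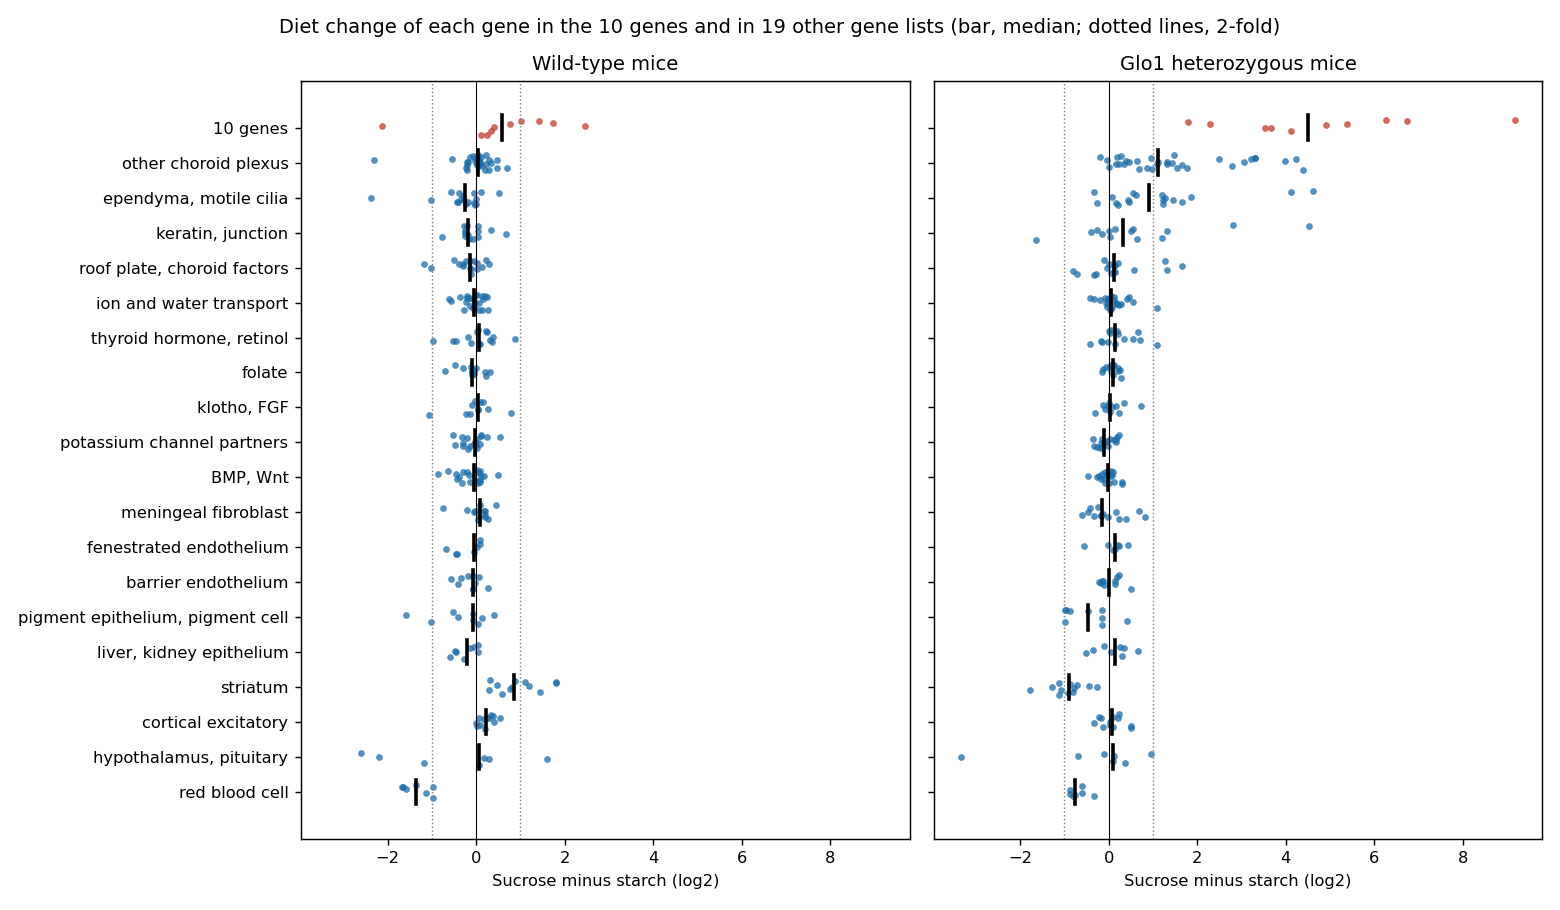
Log2 change from starch to sucrose of each measured gene (points) in the 10 choroid plexus genes and 19 gene lists, in wild-type mice (left) and Glo1 heterozygous mice (right), with the median of each list as a bar and dotted lines at 2-fold. In heterozygous mice the 10 genes have a median of 4.51, other choroid plexus genes 1.11, ependyma 0.91 and striatal genes -0.90, and in wild-type mice the medians are 0.59, 0.04, -0.24 and 0.85.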

How the data were processed

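Total RNA of mouse prefrontal cortex was measured on 4 one-colour Agilent arrays, 1 per group, on 1 slide, so the effect of an array's place on the slide and that of the group cannot be told apart. The authors deposited scanner files of Agilent Feature Extraction (version 11.5.1.1 per the submitters' processing notes), whose processed intensity per spot is, per the file headers, background-subtracted and detrended within the array. The deposited series matrix holds a ratio per spot, which on comparison was that intensity divided by the array's 75th percentile, with column medians of 0.0763, 0.0755, 0.0759 and 0.0777. Probe coordinates are those of the files, on mm9.

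Here, log2 of the processed signal was taken relative to the 75th percentile of all spots but controls on the same array (Python 3.11.15, R 4.3.3, limma 3.58.1 for the alternatives). Spots marked as outliers (46 to 82 per array) and control spots were left out, spots of a probe were averaged, and a gene took its brightest probe of those well above background on all 4 arrays (42094 of 56605 probes). Names were kept where they are symbols (18298) or older symbols (877) in the RefSeq table of GRCm38.p6. A change is a difference of single arrays, counted at 2-fold, with no p-value. A probe measured on 1 side of a pair gives a bound, taken against the higher of its own dim signal and the array's lowest signal well above background. The computation was tested on simulated data.

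The 10 genes and the 19 gene lists were chosen with earlier results of these data known, and no list is independent evidence. Named from each list were at most the 4 largest changes past 2-fold, beside the 10 genes nearest to the members' profile and genes below background, and a few singled out as stated. The 8 alternatives were normexp background correction (offset 50), scaling to the median, quantile and cyclic loess normalisation, the mean over a gene's probes, no filter on dim probes, outlier spots kept, and the authors' matrix.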

Additional observations from a re-analysis of the deposited data

Results flagged for a closer look

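Several genes differed in sign between genotypes or between diets. None of these differences was tested, since each group was 1 array, and each is given as the interaction on the log2 scale after its 2 parts.

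For genotype, Ttr was at -1.35 on starch and 5.37 on sucrose (interaction 6.72) and Folr1 at -1.12 and 4.80 (5.92). The second probe of Folr1 was at 0.17 and 1.94 (1.77), with no difference in sign, and its value on starch came to -0.64 with normexp correction and -0.47 with the mean over both probes. For diet, Aqp1 was at -2.11 in wild-type mice and 1.79 in heterozygous mice (3.90), and Foxj1 at -1.01 and 1.26 (2.28).

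Striatal genes differed the other way. Adora2a was at 1.80 and -1.79 for diet in wild-type and heterozygous mice, and at 1.78 and -1.81 for genotype on starch and sucrose (interaction -3.59). Drd1 was at 1.45 and -1.27 for diet and at 1.25 and -1.48 for genotype (-2.73). Gpr6, an orphan receptor of striatal neurons, was at 1.81 and -1.07 for diet and at 1.17 and -1.71 for genotype (-2.88).

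Of the hormone genes, prolactin (Prl) was at 1.60 and -3.33 for diet and at 3.39 and -1.53 for genotype (-4.92). Oxytocin (Oxt) was at -1.99 on starch and 1.16 on sucrose for genotype (3.15).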

How the results depend on the processing

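The 10 genes were recomputed in 6 comparisons under 8 alternatives, which gave 480 values. Of the 384 whose reported value was past 2-fold, all 384 kept their sign and 5 fell within 2-fold. Normexp background correction moved 49 of its 60 values by more than the array noise and the mean over a gene's probes moved 16. The other 6 alternatives moved none of their 60 values each, and no scaling moved the median of all genes by more than 0.045. The counts of 10 of 10 genes held under all 8. For diet in wild-type mice the count past 2-fold was 5 as reported (4 higher, 1 lower) and 3 with normexp (2 higher, 1 lower), since Kcne2 came to 0.42 and Krt18 to 0.32. For genotype on starch it was 3 as reported (1 higher, 2 lower) and 1 with normexp (0 higher, 1 lower), since Folr1 came to -0.64 and Clic6 to 0.91. With the mean over its probes Folr1 came to -0.47. Normexp adds an offset of 50 units, which draws dim signals together. Of all genes, 1.44% were past 2-fold for diet in wild-type mice, 0.527% with normexp and 5.43% without the filter on dim probes. For diet in heterozygous mice the shares were 1.77%, 0.767% and 5.18%, for genotype on starch 0.777%, 0.235% and 4.99%, and for genotype on sucrose 1.76%, 0.803% and 5.46%. No paired analysis was possible because each group has 1 array and the labels give no replicate numbers. No array could be left out within a group, and probes under 50 units had an SD of a log2 difference of 0.92.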

Other observations

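Genes of tissues next to the prefrontal cortex or in its vessels also differed between arrays, and not all of them with the choroid plexus genes. Of 7 measured genes of red blood cells, 5 were past 2-fold lower on sucrose in wild-type mice and none was in heterozygous mice, with medians of -1.35 and -0.75. Hbb-b2 (-1.68), Alas2 (-1.65, the first enzyme of heme synthesis in red cells), Hbb-b1 (-1.58) and Hbb-bt (-1.35) were the lowest. The list's summed level was 277, 135, 235 and 152 times the 75th percentile in wild-type starch, wild-type sucrose, heterozygous starch and heterozygous sucrose, so both starch arrays stood above both sucrose arrays.

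Of 9 measured genes of pigment epithelium and pigment cells, 4 were past 2-fold higher and none lower in heterozygous mice on starch, and 3 were higher and 1 lower on sucrose. Mlana was at 3.19 on starch and 2.10 on sucrose for genotype, Dct at 2.94 and 2.01, and Tyrp1, which with Dct makes melanin, at 1.87 and 2.47. Tyr was at -0.97 and -0.13. The list's summed level was 3.31, 2.54, 4.45 and 3.51 on the 4 arrays. The gene lower on sucrose was Rpe65, of the retinal pigment epithelium, at -1.12, and Lrat was well above background on no array. Rrh, also of that epithelium, was well above background on both sucrose arrays only, and was at least 6.18-fold higher on sucrose in heterozygous mice and at least 6.45-fold higher in heterozygous sucrose than in wild-type starch.

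Of 7 measured genes of hypothalamus and pituitary, 1 was past 2-fold higher and 3 were lower on sucrose in wild-type mice, and none was higher and 1 lower in heterozygous mice. Beside prolactin and oxytocin, Trh was at -2.59 and Avp at -1.17 for diet in wild-type mice. Growth hormone (Gh) was at least 5.85-fold lower and Cga, the common hormone alpha subunit, at least 2.62-fold lower on sucrose in heterozygous mice. The list's summed level was 2.88, 1.06, 1.90 and 1.48.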
